A study of Mus musculus with 28 samples.

Results

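The 10 genes of the myostatin, activin and follistatin axis were described in tibialis anterior (TA) muscle, the fast muscle at the front of the lower leg. They were chosen as named ligands, inhibitors and receptors that set muscle mass, and all 10 were found by symbol among the 55359 genes that both count tables share. The ligands were *Mstn* (ENSMUSG00000026100), *Gdf11* (ENSMUSG00000025352), *Gdf5* (ENSMUSG00000038259), *Inhba* (ENSMUSG00000041324) and *Inhbb* (ENSMUSG00000037035). The follistatin family was represented by *Fst* (ENSMUSG00000021765), *Fstl1* (ENSMUSG00000022816) and *Fstl3* (ENSMUSG00000020325), and the type II receptors by *Acvr2a* (ENSMUSG00000052155) and *Acvr2b* (ENSMUSG00000061393).

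The muscles came from 28 mice of the C57BL/6N strain at 8 weeks of age, with 4 mice in each of 7 groups. The Dnm2 cohort held WT mice on placebo, WT mice on a diet with tamoxifen, and *Dnm2* S619L/+ mice (Dnm2SL, heterozygous for an amino acid change in the membrane-cutting GTPase dynamin 2) on placebo or on tamoxifen. The Bin1 cohort held WT mice on placebo and *Bin1* mck-/- mice (Bin1KO, which lack the membrane-curving protein amphiphysin 2 where the deletion acts) on placebo or on tamoxifen. Both genotypes are mouse models of centronuclear myopathy, a congenital weakness with misplaced nuclei in the muscle fibers, and the diet tested whether tamoxifen, a selective modulator of estrogen receptors, changes the muscle. WT mice on tamoxifen were sequenced in the Dnm2 cohort only, and since the mck promoter that drives the deletion acts in muscle fibers, other cells of the muscle can still make *Bin1*. The Dnm2 cohort libraries took 300 ng of total RNA and a 2 min fragmentation, the Bin1 cohort libraries 350 ng and 8 min, so that model and library protocol changed together and levels were compared within a cohort only.

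Myostatin is a secreted brake on muscle growth, made mainly by the muscle fiber itself. It is released as a latent precursor that proprotein convertases and tolloid proteases free, and the mature dimer then binds activin type II receptors and a type I receptor, which phosphorylate SMAD2 and SMAD3. GDF11 is its closest relative and activins use the same receptors, whereas GDF5 signals through the bone morphogenetic protein (BMP) branch to SMAD1, SMAD5 and SMAD9. Follistatin and FSTL3 bind and neutralize myostatin, GDF11 and activins. FSTL1 shares a follistatin-like domain but is mostly known as a secreted glycoprotein of mesenchymal cells.

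The promoters of *Mstn* and *Gdf11*, the pair of related ligands on which the results turn, were read from RefSeq (GRCm38.p6), which held a window for 8 of the 10 genes. In capitals are a CCAAT box, the run CTGACGACAC and a TATAAA box. The run was the longest stretch that the 250 bases before both annotated starts shared. The *Mstn* stretch lies at chr1:53061548-53061636 on the plus strand, and the *Gdf11* stretch at chr10:128891878-128891958 on the minus strand.
Mstn: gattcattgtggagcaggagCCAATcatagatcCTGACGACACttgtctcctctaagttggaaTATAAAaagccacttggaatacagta
Gdf11: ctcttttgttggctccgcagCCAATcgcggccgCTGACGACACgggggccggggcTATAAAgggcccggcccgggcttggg
In both promoters, the run began 13 bases after the start of the CCAAT box. It began 30 bases before the TATAAA box in *Mstn* and 22 bases before it in *Gdf11*. The run stood 59 bases before the annotated start in *Mstn* and 207 bases before it in *Gdf11*. TATAAA stood 29 bases before that start in *Mstn* and 185 bases before it in *Gdf11*, so that its place relative to the start was not shared. Read on both strands, it was present in 12 of 32851 mouse promoter windows (0.037%, 11 genes, *Mstn* and *Gdf11* among them). CCAAT was in 33.85% and TATAAA in 12.368% of windows. These boxes have 5 and 6 bases and the run has 10, so that the shares cannot be compared as a measure of rarity. The windows differed in composition, with 38.4% G and C in *Mstn*, 81.2% in *Gdf11* and a median of 52.4% over all windows. *Mstn* had 4 sites of the E-box letters CANNTG, which myogenic factors can bind and which 66.217% of windows contain, and *Gdf11* had 1. These matches are descriptions of the sequence and were not tested for function.

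The TA libraries were checked before the axis was described. Reads on genes ranged from 15586333 to 109710886 per mouse in the Dnm2 cohort and from 24671835 to 35136327 in the Bin1 cohort. *Bin1* was at 51.6 to 62.1 CPM (reads scaled to a common library size) in Bin1KO placebo and at 36.1 to 49.5 CPM in Bin1KO tamoxifen muscles, against 521 to 556 CPM in their WT. *Dnm2* was at 61.0 to 64.4 CPM in WT placebo and at 62.0 to 72.4 CPM in Dnm2SL placebo muscles, and as S619L changes an amino acid, this level does not check the genotype. The 6 myofiber markers summed to 66338 to 160300 CPM in all libraries. The 7 bone markers summed to 11.6 to 57.7 CPM in every placebo library, to 882 to 2083 CPM in WT tamoxifen, and to 640, 1422, 1593 and 60.2 CPM in Dnm2SL tamoxifen mice 1 to 4. In Bin1KO tamoxifen muscles, the bone sum was 584 CPM in mouse 2 and 18.3 to 25.4 CPM in the other 3. From *Xist* and *Ddx3y*, 2 mice were female and 2 male in WT placebo, WT tamoxifen and Dnm2SL placebo of the Dnm2 cohort, whereas all 4 Dnm2SL tamoxifen mice and all 12 mice of the Bin1 cohort were female. In bulk muscle, fewer cells of a type and less RNA per cell cannot be told apart.

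Each comparison was first counted over the axis, with edgeR's quasi-likelihood test and an adjusted p below 0.05 over all genes tested as the threshold. In Dnm2SL placebo against WT placebo, 3 genes of the axis rose (*Gdf11*, *Gdf5*, *Fst*) and *Mstn* fell, with 4 of 10 called against 21.9% of all genes. In WT tamoxifen against WT placebo, 6 of 10 rose (*Gdf11*, *Inhba*, *Inhbb*, *Fst*, *Fstl1*, *Fstl3*) against 27.7% called of all genes in either direction. In Dnm2SL tamoxifen against Dnm2SL placebo, 3 of 10 were called against 8.27%, with *Inhbb* and *Fstl1* higher and *Gdf11* lower. In Dnm2SL tamoxifen against WT placebo, 6 of 10 were called against 28.9%, with *Gdf11*, *Gdf5*, *Inhbb*, *Fst* and *Fstl1* higher and *Mstn* lower. The interaction of genotype and tamoxifen called 2 of 10 (*Gdf11*, *Fst*) against 0.259% of all genes.

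Of the 10 genes, 9 were tested in the Bin1 cohort, since *Gdf5* was under the filter on low counts. Bin1KO placebo against WT placebo called 2 of 9 (*Fst* higher, *Mstn* lower) against 2.61% of all genes. Bin1KO tamoxifen against Bin1KO placebo called 1 of 9 (*Mstn*, higher) against 3.13%. Bin1KO tamoxifen against WT placebo called 0 of 9 in edgeR against 0.849%, with 1 of 9 at an unadjusted p under 0.05 and 1 of 9 called by DESeq2, which was *Fst* in both cases. A joint fit of both cohorts compared the models, and the disease effect differed for 1 of 10 (*Gdf11*) against 0.312% of all genes, while the tamoxifen effect differed for 2 of 10 (*Gdf11*, *Fstl1*) against 1.71%. Comparisons of a cohort share groups of mice, so that their counts are not independent of each other.

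**Figure D1:**
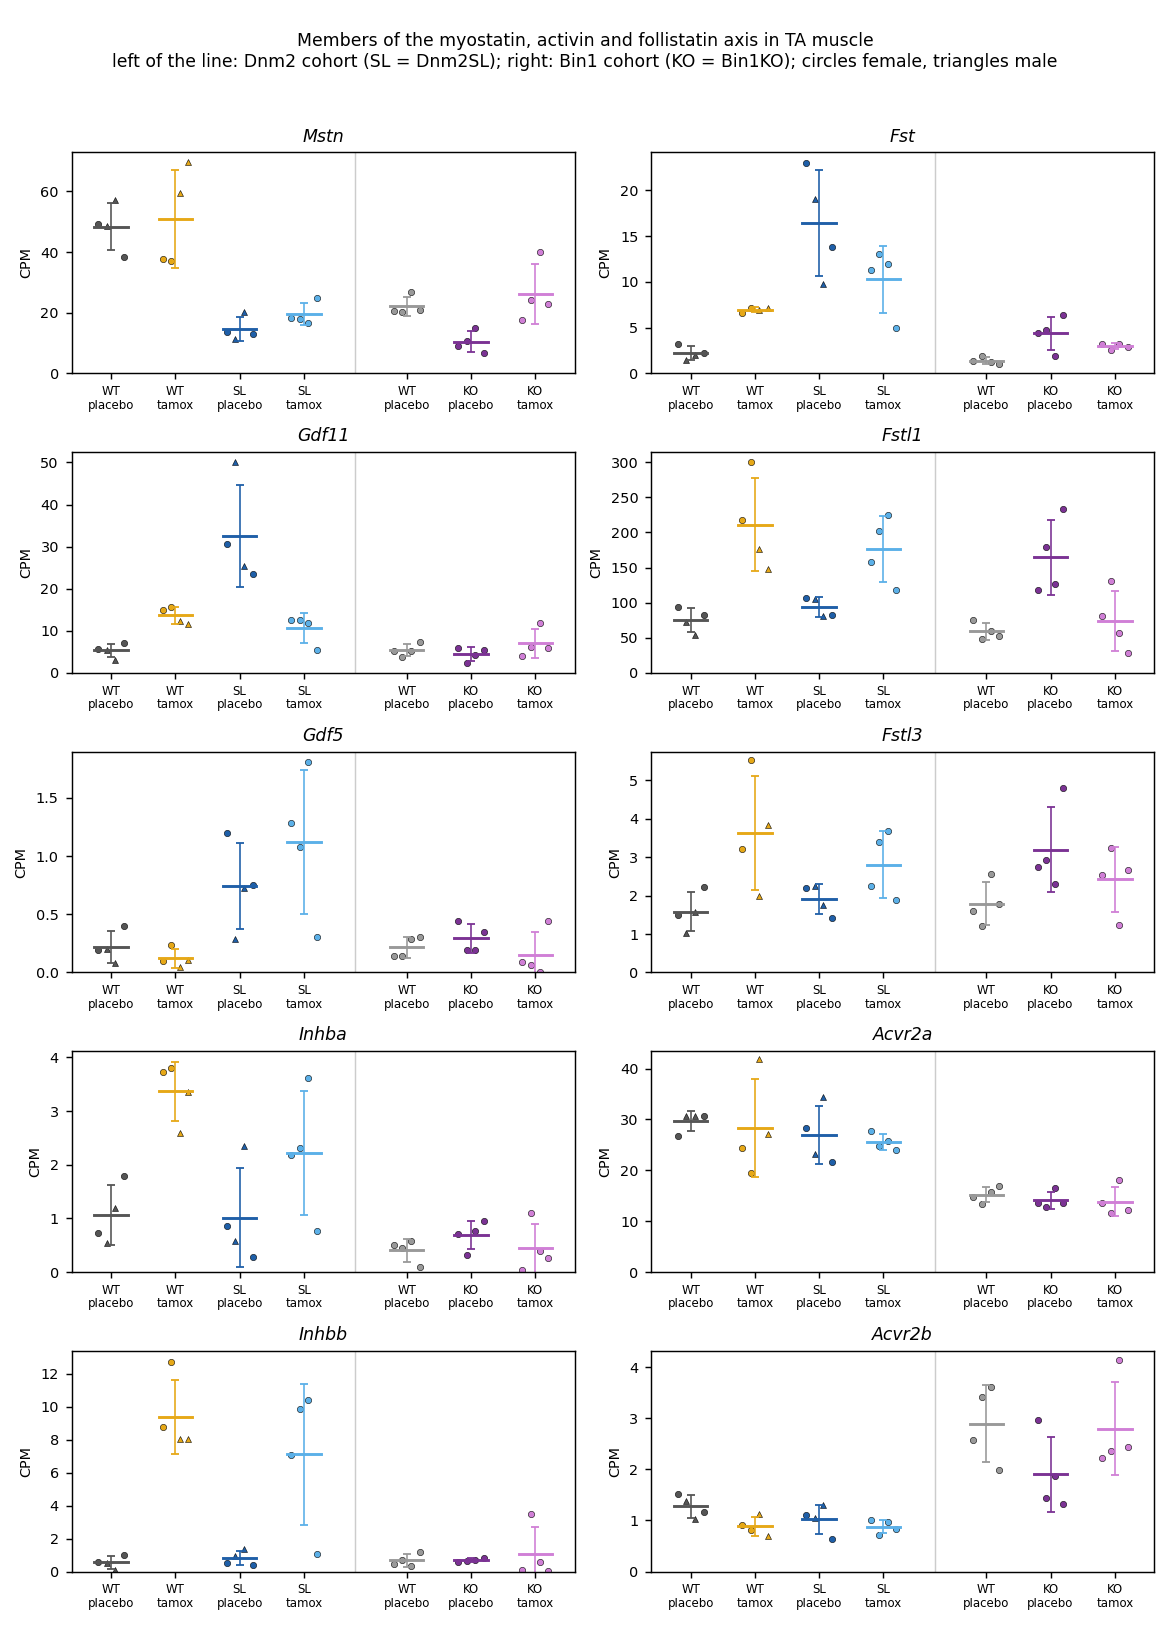
CPM of each gene of the axis in every mouse, with the mean and SD of each group (n = 4); circles are female and triangles male mice, and the Bin1 cohort is right of the grey line. *Mstn* was at 11.4 to 20.3 CPM in Dnm2SL placebo against 38.2 to 57.3 CPM in WT placebo, while *Gdf11* was at 23.6 to 50.1 CPM against 3.16 to 7.01 CPM.

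*Mstn*, the myostatin gene, was lower in both disease models on placebo. In WT placebo muscles of the Dnm2 cohort it was at 49.2, 48.7, 57.3 and 38.2 CPM. In Dnm2SL placebo it was at 13.6, 11.4, 20.3 and 12.9 CPM, and no mouse reached the WT range. The fall was 3.32-fold, with a log2 fold change of -1.73 ± 0.23 (SE) and an adjusted p of 0.000154. Each fit without 1 mouse kept the call, as did the fits with sex as a covariate and in female mice only.

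Under tamoxifen, *Mstn* stayed low in the Dnm2SL model. Dnm2SL tamoxifen muscles had 18.3, 18.0, 16.7 and 24.8 CPM, which overlapped with Dnm2SL placebo, and the difference was 0.42 ± 0.22 on the log2 scale (adjusted p = 0.253, interval -0.02 to 0.86). Against WT placebo these mice were 2.48-fold lower (log2 -1.31 ± 0.22, adjusted p = 0.000863), and all 4 lay under the WT range. WT tamoxifen muscles had 37.9 and 37.0 CPM in the females and 59.5 and 69.7 CPM in the males, on both sides of WT placebo, with a log2 difference of 0.08 ± 0.22 (adjusted p = 0.817). In WT placebo, by contrast, the females (49.2 and 38.2 CPM) and the males (48.7 and 57.3 CPM) overlapped.

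WT muscles of the Bin1 cohort had *Mstn* at 20.6, 20.4, 26.8 and 20.8 CPM, and Bin1KO placebo muscles had it at 9.03, 10.8, 15.1 and 6.79 CPM. The groups did not overlap, and the 2.13-fold fall (log2 -1.09 ± 0.26) was near the threshold, with an adjusted p of 0.0490. This call was lost in 8 of 12 fits without 1 mouse, with an adjusted p of up to 0.140 (without Bin1KO placebo mouse 4), and held without Bin1KO placebo mouse 3 or Bin1KO tamoxifen mouse 1, 2 or 3. Tamoxifen raised *Mstn* in Bin1KO to 17.5, 24.1, 40.2 and 22.8 CPM, each above all Bin1KO placebo mice. The rise was 2.51-fold (log2 1.33 ± 0.27, adjusted p = 0.0207). It was lost without Bin1KO placebo mouse 1, 2 or 4 (adjusted p up to 0.0686).

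Against WT, Bin1KO tamoxifen muscles differed in *Mstn* by 0.24 ± 0.26 on the log2 scale (adjusted p = 0.717, interval -0.27 to 0.75). The effect of tamoxifen on *Mstn* in Dnm2SL minus that in Bin1KO was -0.88 ± 0.36 and did not pass the threshold (adjusted p = 0.138). Likewise, the disease effects of both models differed by -0.65 ± 0.36 (adjusted p = 0.443). The rise of *Mstn* in treated Bin1KO and its absence of a call in treated Dnm2SL mice are therefore not shown to differ.

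Summed fiber markers also had different ranges in these groups, with few single markers called. Of the 6 myofiber markers, 1 fell in Dnm2SL placebo and 1 in Bin1KO placebo against WT. With tamoxifen, 1 rose in Bin1KO, 0 were called in WT and 0 in Dnm2SL against Dnm2SL placebo. Against WT placebo, 4 fell in Dnm2SL tamoxifen. The 6 myofiber markers summed to 109970 to 136180 CPM in WT, 75404 to 109510 CPM in Bin1KO placebo and 96285 to 160300 CPM in Bin1KO tamoxifen muscles of the Bin1 cohort. The mouse with the lowest *Mstn* level there (6.79 CPM, Bin1KO placebo mouse 4) had the lowest sum, and the one with the highest (40.2 CPM, Bin1KO tamoxifen mouse 3) the highest. In the Dnm2 cohort, the sum was 105850 to 131390 CPM in WT placebo, 79631 to 117690 CPM in Dnm2SL placebo, 66338 to 112760 CPM in Dnm2SL tamoxifen and 81537 to 99937 CPM in WT tamoxifen, the last with *Mstn* in the range around WT placebo. All 4 slow fiber markers rose in Dnm2SL placebo against WT, with sums of 26.4 to 226 CPM against 8.86 to 30.4 CPM. The part of fiber RNA and fiber type in the *Mstn* results was not tested.

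*Gdf11*, the relative of myostatin best known from axial patterning of the embryo, moved in the opposite direction in Dnm2SL muscle. It was at 5.80, 5.52, 3.16 and 7.01 CPM in WT placebo and at 30.7, 50.1, 25.4 and 23.6 CPM in Dnm2SL placebo, so that the lowest Dnm2SL mouse stood above every WT mouse. The rise was 5.91-fold (log2 2.56 ± 0.30, adjusted p = 7.1e-05), and it was called in all 16 fits without 1 mouse. Among females only it was 2.10 on the log2 scale (adjusted p = 0.0116).

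Tamoxifen lowered *Gdf11* in Dnm2SL mice to 12.7, 12.6, 11.8 and 5.40 CPM, each under all Dnm2SL placebo mice. The fall was 3.05-fold (log2 -1.61 ± 0.29, adjusted p = 0.00581). It was called in all 16 fits without 1 mouse but not among females only (log2 -1.34, adjusted p = 0.0785). In WT mice, tamoxifen raised the gene to 15.0, 15.7, 12.3 and 11.6 CPM, a 2.49-fold rise without overlap (log2 1.32 ± 0.29, adjusted p = 0.00446).

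The effects of tamoxifen on *Gdf11* in the 2 genotypes thus had opposite signs, and the interaction was -2.93 ± 0.41 on the log2 scale (adjusted p = 0.0169). This call was lost without WT placebo mouse 1 or WT tamoxifen mouse 1 or 2, with an adjusted p of up to 0.0645, and among females only (-2.61, adjusted p = 0.0690). Treated Dnm2SL and treated WT muscles came to overlapping levels of 5.40 to 12.7 and 11.6 to 15.7 CPM. Against WT placebo, treated Dnm2SL muscles were still 1.94-fold higher (log2 0.95 ± 0.29, adjusted p = 0.0243), although mouse 4 lay inside the WT range. This last call was lost in 5 of 16 fits without 1 mouse (WT placebo mouse 2 or 3, or Dnm2SL tamoxifen mouse 1, 2 or 3), with an adjusted p of up to 0.0685, and with sex as a covariate (adjusted p = 0.0571).

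The Bin1KO model showed no comparable change in *Gdf11*. WT muscles of that cohort had 5.23, 3.90, 5.25 and 7.29 CPM, and Bin1KO placebo muscles had 6.04, 2.35, 4.21 and 5.57 CPM. The difference was -0.25 ± 0.34 on the log2 scale (adjusted p = 0.733, interval -0.91 to 0.41). Bin1KO tamoxifen muscles had 3.97, 6.22, 11.9 and 6.03 CPM, which overlapped with both other groups (log2 0.63 ± 0.34 against Bin1KO placebo, adjusted p = 0.307).

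*Gdf11* was the gene of the axis whose disease effect differed between the models. The effect in Dnm2SL minus that in Bin1KO was 2.81 ± 0.47 on the log2 scale (adjusted p = 0.00728), and it was called in 28 of 28 fits without 1 mouse. The tamoxifen effects differed by -2.20 ± 0.47 (adjusted p = 0.0295). This call was lost in 7 of 28 such fits, with the largest adjusted p of 0.0729 without Bin1KO tamoxifen mouse 3, which had the highest *Gdf11* level of its group. The other 6 were the fits without Dnm2SL placebo mouse 2, Dnm2SL tamoxifen mouse 1, 2 or 3, or Bin1KO placebo mouse 2 or 4. Dnm2SL placebo held 2 male mice, Dnm2SL tamoxifen and both Bin1KO groups held 0, and sex was not fitted in this comparison.

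**Figure D2:**
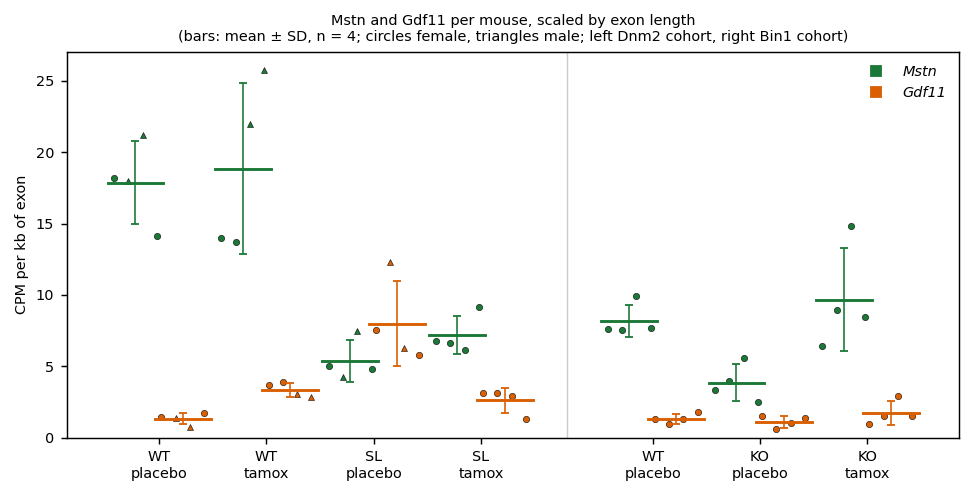
*Mstn* and *Gdf11* in every mouse as CPM per kb of annotated exon, with the mean and SD of each group (n = 4); circles are female and triangles male mice. In Dnm2SL placebo the mean of *Gdf11* was 7.99 and that of *Mstn* 5.38 CPM per kb, whereas *Mstn* was above *Gdf11* in every mouse of the other 6 groups.

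Levels of these related ligands were compared per length, since *Gdf11* has 4062 bases of annotated exon and *Mstn* 2705. In WT placebo muscle of the Dnm2 cohort, *Mstn* was at 17.9 CPM per kb and *Gdf11* at 1.32. In Dnm2SL placebo, the order was turned in 3 of 4 mice, with group means of 5.38 CPM per kb for *Mstn* and 7.99 for *Gdf11*. In Dnm2SL tamoxifen muscles, *Mstn* at 7.20 CPM per kb was again above *Gdf11* at 2.62 in all 4 mice. *Gdf11* stayed between 1.12 and 1.73 CPM per kb on average in the Bin1 cohort, and below *Mstn* in all 12 mice.

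*Gdf5*, a BMP-type ligand that the denervated muscle is known to make and that counteracts fiber loss, was scarce. WT placebo muscles of the Dnm2 cohort had 0.193, 0.198, 0.0791 and 0.402 CPM, which came from 1 to 19 reads. Dnm2SL placebo muscles had 1.19, 0.288, 0.724 and 0.752 CPM, and mouse 2 overlapped with WT. The rise of 1.68 ± 0.55 on the log2 scale was called with an adjusted p of 0.0400 and lost in 7 of 16 fits without 1 mouse, with an adjusted p of up to 0.132 (without Dnm2SL placebo mouse 1). It was also lost in female mice only (adjusted p = 0.172). The other 6 were the fits without WT placebo mouse 1, 2 or 3, Dnm2SL placebo mouse 4, or Dnm2SL tamoxifen mouse 1 or 2.

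In treated Dnm2SL muscles, *Gdf5* was at 1.29, 1.08, 1.81 and 0.309 CPM, 4.66-fold above WT placebo (log2 2.22 ± 0.55, adjusted p = 0.00730), with mouse 4 inside the WT range. WT tamoxifen muscles had 0.0471 to 0.240 CPM and showed no call (log2 -0.88 ± 0.65, adjusted p = 0.331). With 0 to 15 reads per mouse in the Bin1 cohort, the gene was not tested there.

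The activin genes *Inhba* and *Inhbb*, whose products pair into activins and, with inhibin alpha, into inhibins, were near 1 CPM or below it in most placebo muscles. *Inhbb* was at 0.588, 0.538, 0.0791 and 1.01 CPM in WT placebo and at 8.77, 12.7, 8.05 and 8.08 CPM in WT tamoxifen muscles. This 15.3-fold rise was the largest of the axis in any of the 7 comparisons of groups (log2 3.93 ± 0.61, adjusted p = 0.000526). Dnm2SL placebo muscles had 0.518, 0.960, 1.36 and 0.396 CPM, within 1 log2 unit of WT on average (log2 0.35 ± 0.64, adjusted p = 0.727).

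Tamoxifen also raised *Inhbb* in Dnm2SL mice, to 7.08, 9.89 and 10.4 CPM in mice 1 to 3, while mouse 4 stayed at 1.08 CPM and overlapped with placebo. The log2 fold change was 3.17 ± 0.60 (adjusted p = 0.00719) against Dnm2SL placebo and 3.52 ± 0.60 (adjusted p = 0.000910) against WT placebo, whose mice all lay lower. In Bin1KO tamoxifen muscles, mouse 2 had 3.52 CPM and the other 3 had 0.0872, 0.582 and 0.0365 CPM, with no call (log2 0.63 ± 0.91, adjusted p = 0.733). Without mouse 2 the direction turned, to -1.54 (adjusted p = 0.184). The mice on tamoxifen with low *Inhbb* were those with a low sum of bone markers. Dnm2SL tamoxifen mouse 4 had a bone sum of 60.2 CPM against 640 to 1593 CPM in the other 3, and Bin1KO tamoxifen mouse 2, the mouse with high *Inhbb*, had 584 CPM against 18.3 to 25.4 CPM.

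Without Bin1KO tamoxifen mouse 2, the tamoxifen effect on *Inhbb* in Dnm2SL minus that in Bin1KO was 4.74 on the log2 scale with an adjusted p of 0.00492, against 2.57 ± 1.099 and 0.156 with all mice. Of the 7 bone markers, 6 rose in WT tamoxifen and 6 in Dnm2SL tamoxifen against Dnm2SL placebo, and *Ibsp* was at 0 in all Bin1KO placebo mice. Without Dnm2SL tamoxifen mouse 4, the log2 fold change of *Inhbb* in treated Dnm2SL mice was 3.54 (adjusted p = 4.24e-05). The call against Dnm2SL placebo was lost in female mice only (adjusted p = 0.0917) and with only the 2 groups compared (0.0785). The part of bone-derived RNA in the *Inhbb* result was not tested.

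*Inhba* was called in WT tamoxifen against WT placebo and in no other comparison by edgeR. It was at 0.730, 0.538, 1.19 and 1.79 CPM in WT placebo and at 3.72, 3.81, 2.59 and 3.35 CPM in WT tamoxifen muscles, which did not overlap. The rise was 3.22-fold (log2 1.69 ± 0.54, adjusted p = 0.0297), and it was lost in 5 of 16 fits without 1 mouse (WT placebo mouse 1, 2 or 3, or WT tamoxifen mouse 1 or 2; adjusted p up to 0.0885), without the filter on low counts (0.0657) and in female mice only (0.133). In Dnm2SL muscles, it was at 0.857, 0.576, 2.35 and 0.277 CPM on placebo and at 2.18, 2.31, 3.61 and 0.772 CPM on tamoxifen, with overlap and no call (log2 1.13 ± 0.55, adjusted p = 0.210). The effects in the 2 genotypes were not shown to differ (interaction -0.55 ± 0.76, adjusted p = 0.815). All mice of the Bin1 cohort had *Inhba* between 0.0436 and 1.09 CPM.

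*Fst*, which encodes follistatin, was higher in both disease models. WT placebo muscles of the Dnm2 cohort had 3.24, 1.44, 2.06 and 2.19 CPM, and Dnm2SL placebo muscles had 23.0, 19.1, 9.78 and 13.9 CPM. The groups were far apart, and the 7.21-fold rise (log2 2.85 ± 0.32, adjusted p = 5.7e-05) was called in all 16 fits without 1 mouse and among females only. Follistatin RNA thus rose in the muscles in which the RNA of its ligand myostatin fell.

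In WT mice, tamoxifen raised *Fst* to 6.58, 7.17, 6.97 and 7.18 CPM, a narrow range above every WT placebo mouse (3.05-fold, log2 1.61 ± 0.32, adjusted p = 0.00203). In Dnm2SL mice, treated muscles had 11.3, 13.0, 12.0 and 4.94 CPM, which overlapped with Dnm2SL placebo, and the difference was -0.68 ± 0.30 on the log2 scale (adjusted p = 0.164). They remained 4.50-fold above WT placebo (log2 2.17 ± 0.32, adjusted p = 0.000353). The interaction was -2.29 ± 0.43 with an adjusted p of 0.0470, and it was called in 2 of 16 fits without 1 mouse, those without Dnm2SL placebo mouse 3 and without Dnm2SL tamoxifen mouse 4, with an adjusted p of up to 0.116 in the others.

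In the Bin1 cohort, *Fst* was at 1.37, 1.95, 1.28 and 1.02 CPM in WT and at 4.38, 4.80, 1.93 and 6.34 CPM in Bin1KO placebo, where mouse 3 overlapped with WT. The rise was 3.11-fold (log2 1.64 ± 0.32, adjusted p = 0.0181). It was lost in 5 of 12 fits without 1 mouse (Bin1KO placebo mouse 2 or 4, or WT mouse 6, 7 or 8; adjusted p up to 0.0736). Bin1KO tamoxifen muscles had 3.18, 2.61, 3.26 and 2.85 CPM, which lay above all WT mice and within the Bin1KO placebo range. Neither comparison was called (log2 1.08 ± 0.32 and adjusted p = 0.127 against WT, log2 -0.55 ± 0.30 and adjusted p = 0.315 against Bin1KO placebo). The rise of *Fst* in Dnm2SL exceeded that in Bin1KO by 1.21 ± 0.45 on the log2 scale, which did not pass the threshold (adjusted p = 0.224).

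Markers of denervation, such as the acetylcholine receptor subunits *Chrna1* and *Chrng*, were compared with *Fst*, together with tendon markers. The 5 denervation markers summed to 34.9 to 42.6 CPM in WT placebo, 80.4 to 217 CPM in Dnm2SL placebo, 118 to 158 CPM in Dnm2SL tamoxifen and 55.5 to 93.6 CPM in WT tamoxifen. They summed in the Bin1 cohort to 34.8 to 43.0 CPM in WT, 53.0 to 148 CPM in Bin1KO placebo and 32.3 to 59.0 CPM in Bin1KO tamoxifen. All 5 markers rose in Dnm2SL placebo and 3 of 5 in Bin1KO placebo, whereas in WT tamoxifen 2 rose and 1 fell. With tamoxifen in Bin1KO, 1 of 5 fell against Bin1KO placebo. Mouse by mouse, the order differed between groups. In Bin1KO placebo, mouse 3 had the lowest *Fst* level (1.93 CPM) and the lowest denervation sum (53.0 CPM), whereas in Bin1KO tamoxifen mouse 3 had the highest *Fst* level (3.26 CPM) and the lowest sum (32.3 CPM). Dnm2SL tamoxifen mouse 4, with the lowest *Fst* level of its group (4.94 CPM), had a denervation sum of 127 CPM, inside the range of the other 3. Beside the same sums, *Gdf11* was at 3.16 to 7.01 CPM in WT placebo and 23.6 to 50.1 CPM in Dnm2SL placebo. It was at 5.40 to 12.7 CPM in Dnm2SL tamoxifen and 11.6 to 15.7 CPM in WT tamoxifen. In the Bin1 cohort, it was at 3.90 to 7.29 CPM in WT, 2.35 to 6.04 CPM in Bin1KO placebo and 3.97 to 11.9 CPM in Bin1KO tamoxifen.

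The 5 tendon markers summed to 46.3 to 132 CPM in WT placebo and 348 to 819 CPM in WT tamoxifen. They summed to 390, 318, 153 and 220 CPM in Dnm2SL placebo mice 1 to 4, to 264, 362, 274 and 97.4 CPM in Dnm2SL tamoxifen and to 206, 250, 77.9 and 964 CPM in Bin1KO placebo. In these 3 groups, the mice had the same order by tendon sum as by *Fst* level. This was not so in WT tamoxifen, in Bin1KO tamoxifen (45.6, 226, 160 and 35.5 CPM) or in WT placebo of either cohort. Bin1 cohort WT muscles had 60.4 to 123 CPM. Of the 5 tendon markers, 3 rose in Dnm2SL placebo against WT and 4 in WT tamoxifen. The part of denervation and of tendon RNA in the results on *Fst* and *Gdf11* was not tested.

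**Figure D3:**
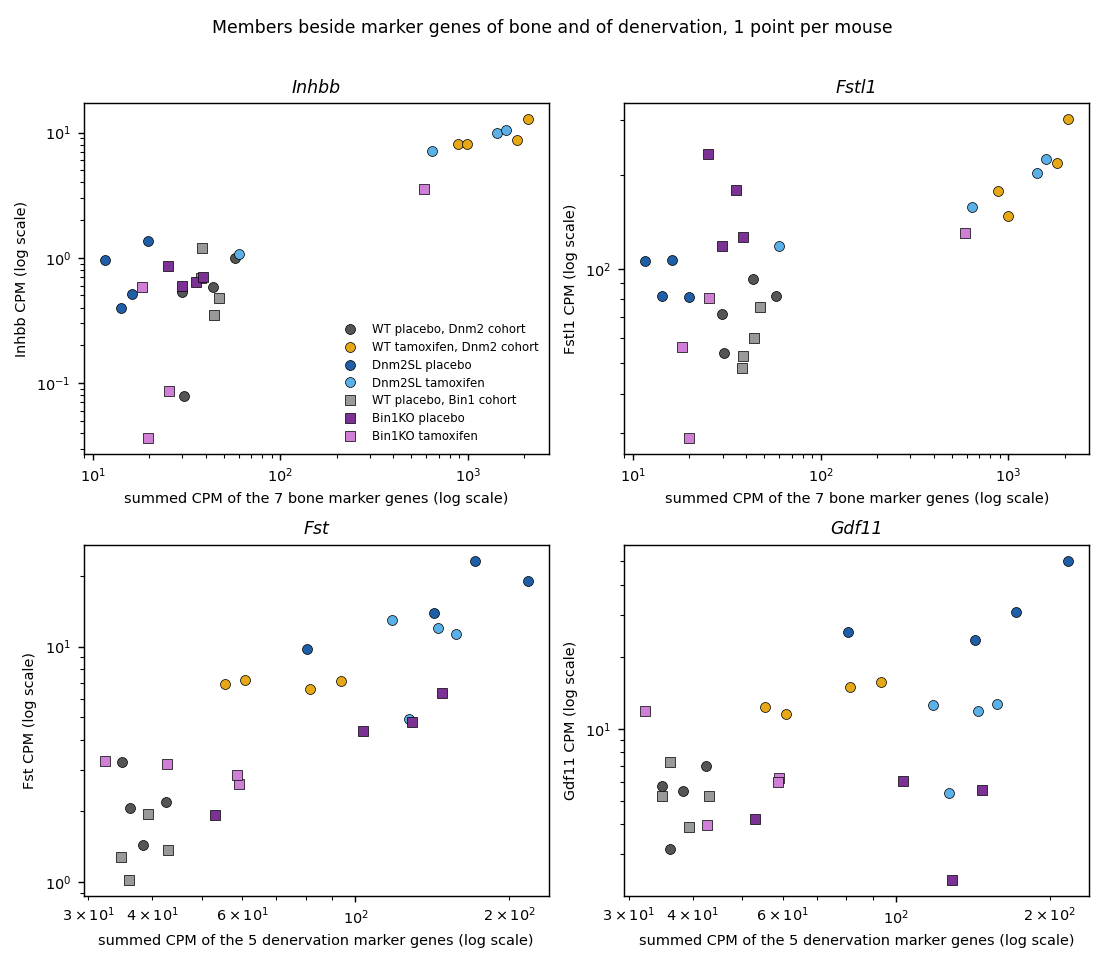
*Inhbb* and *Fstl1* against the summed CPM of 7 bone markers, and *Fst* and *Gdf11* against that of 5 denervation markers, with 1 point per mouse and log scales on both axes. The mice with a bone sum of 584 CPM or more had *Inhbb* at 3.52 to 12.7 CPM, and the placebo mice, with at most 57.7 CPM of bone markers, had at most 1.36 CPM.

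*Fstl1* had the highest level per length of the follistatin family, and it rose with tamoxifen in the Dnm2 cohort. It was at 93.2, 71.9, 53.9 and 81.8 CPM in WT placebo and at 218, 301, 177 and 148 CPM in WT tamoxifen muscles, a 2.80-fold rise without overlap (log2 1.49 ± 0.24, adjusted p = 0.000596). In Dnm2SL muscles it was at 107, 106, 81.3 and 81.8 CPM on placebo and at 158, 203, 225 and 119 CPM on tamoxifen. The 1.88-fold rise (log2 0.91 ± 0.23, adjusted p = 0.0282) was lost in 5 of 16 fits without 1 mouse (Dnm2SL placebo mouse 2, 3 or 4, or Dnm2SL tamoxifen mouse 2 or 3; adjusted p up to 0.107) and with sex as a covariate (0.70, adjusted p = 0.100).

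Levels of *Fstl1* in the Bin1 cohort were 75.4, 48.4, 60.1 and 52.5 CPM in WT and 118, 179, 127 and 234 CPM in Bin1KO placebo. These groups did not overlap, but the difference of 1.48 ± 0.40 on the log2 scale had an adjusted p of 0.0781. It was called by DESeq2 (adjusted p = 0.0092), with only the 2 groups compared (0.00842), and without Bin1KO tamoxifen mouse 2 or 4 (down to 0.0269). Bin1KO tamoxifen muscles had 80.7, 131, 56.2 and 28.9 CPM (log2 -1.15 ± 0.40 against Bin1KO placebo, adjusted p = 0.141), and without mouse 2, the one with a high bone sum, the difference was -1.58 with an adjusted p of 0.0270. The tamoxifen effect in Dnm2SL exceeded that in Bin1KO by 2.10 ± 0.45 (adjusted p = 0.0337). This call was lost in 9 of 28 fits without 1 mouse (Dnm2SL placebo mouse 2 or 4, Dnm2SL tamoxifen mouse 1, 2 or 3, Bin1KO placebo mouse 2 or 4, or Bin1KO tamoxifen mouse 3 or 4; adjusted p up to 0.0899). Sex was not fitted in this comparison either, and of its groups only Dnm2SL placebo held male mice.

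Fibroblast markers were compared with *Fstl1*. The 5 markers summed to 583 to 964 CPM in WT placebo and 8132 to 16345 CPM in WT tamoxifen, and to 1233 to 1678 CPM in Dnm2SL placebo and 1721 to 12402 CPM in Dnm2SL tamoxifen. Bin1 cohort sums were 619.1 to 861 CPM in WT, 1403 to 3751 CPM in Bin1KO placebo and 227 to 5314 CPM in Bin1KO tamoxifen. Of the 5 markers, 3 rose in WT tamoxifen and 2 in Dnm2SL tamoxifen against Dnm2SL placebo. In Dnm2SL placebo, the sum lay above the WT range while *Fstl1* overlapped with WT and was not called (log2 0.32 ± 0.23, adjusted p = 0.341). The lowest sum, 227 CPM in Bin1KO tamoxifen mouse 4, went with the lowest *Fstl1* level, 28.9 CPM. Among treated mice, the fibroblast sum went with the bone sum. Dnm2SL tamoxifen mouse 4 had the lowest of both in its group (1721 and 60.2 CPM), and Bin1KO tamoxifen mouse 2 the highest of both (5314 and 584 CPM). In Dnm2SL placebo, by contrast, the bone sum of 11.6 to 19.9 CPM lay under the WT placebo range. The parts of fibroblast and of bone RNA in these results were not tested.

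*Fstl3*, a secreted antagonist of activins and myostatin, was at 1.02 to 2.23 CPM in WT placebo and at 3.20, 5.52, 1.98 and 3.83 CPM in WT tamoxifen muscles of the Dnm2 cohort. Mouse 3 lay inside the WT placebo range, and the 2.29-fold rise (log2 1.198 ± 0.32, adjusted p = 0.0114) was lost without WT tamoxifen mouse 2 (adjusted p = 0.0531). Treated Dnm2SL muscles had 2.24, 3.39, 3.69 and 1.88 CPM (log2 0.81 ± 0.32 against WT placebo, adjusted p = 0.0667). Bin1KO placebo muscles had 2.75, 2.93, 2.31 and 4.79 CPM against 1.59, 1.22, 2.56 and 1.78 CPM in WT, with an overlap and no call (log2 0.84 ± 0.33, adjusted p = 0.165).

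Neither type II receptor was called in any comparison. *Acvr2a*, the receptor gene with the higher level, was at 26.7 to 30.8 CPM in WT placebo, 21.7 to 34.5 CPM in Dnm2SL placebo, 24.0 to 27.7 CPM in Dnm2SL tamoxifen and 19.5 to 41.9 CPM in WT tamoxifen muscles. In the Bin1 cohort, it was at 13.4 to 16.9 CPM in WT, 12.7 to 16.6 CPM in Bin1KO placebo and 11.5 to 18.0 CPM in Bin1KO tamoxifen. All groups of a cohort overlapped. The log2 difference was -0.14 ± 0.19 in Dnm2SL placebo against WT (interval -0.51 to 0.23) and -0.10 ± 0.15 in Bin1KO placebo against WT (interval -0.39 to 0.18).

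*Acvr2b*, the receptor with the higher affinity for myostatin, was scarcer, at 1.03 to 1.52 CPM in WT placebo and 0.633 to 1.31 CPM in Dnm2SL placebo. It was at 0.718 to 1.01 CPM in Dnm2SL tamoxifen muscles, each below all WT placebo mice, but the difference of -0.55 ± 0.25 on the log2 scale had an adjusted p of 0.105. In the Bin1 cohort it was at 1.99 to 3.62 CPM in WT, 1.33 to 2.96 CPM in Bin1KO placebo and 2.22 to 4.15 CPM in Bin1KO tamoxifen. Over the 10 comparisons, edgeR and DESeq2 both called *Acvr2a* in 0 and *Acvr2b* in 0, with an unadjusted p under 0.05 in edgeR in 0 and 2 of them. Per length, *Acvr2a* at 5.22 CPM per kb stood above *Acvr2b* at 0.32 in WT placebo of the Dnm2 cohort, and at 2.67 against 0.74 in WT of the Bin1 cohort.

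**Figure D4:**
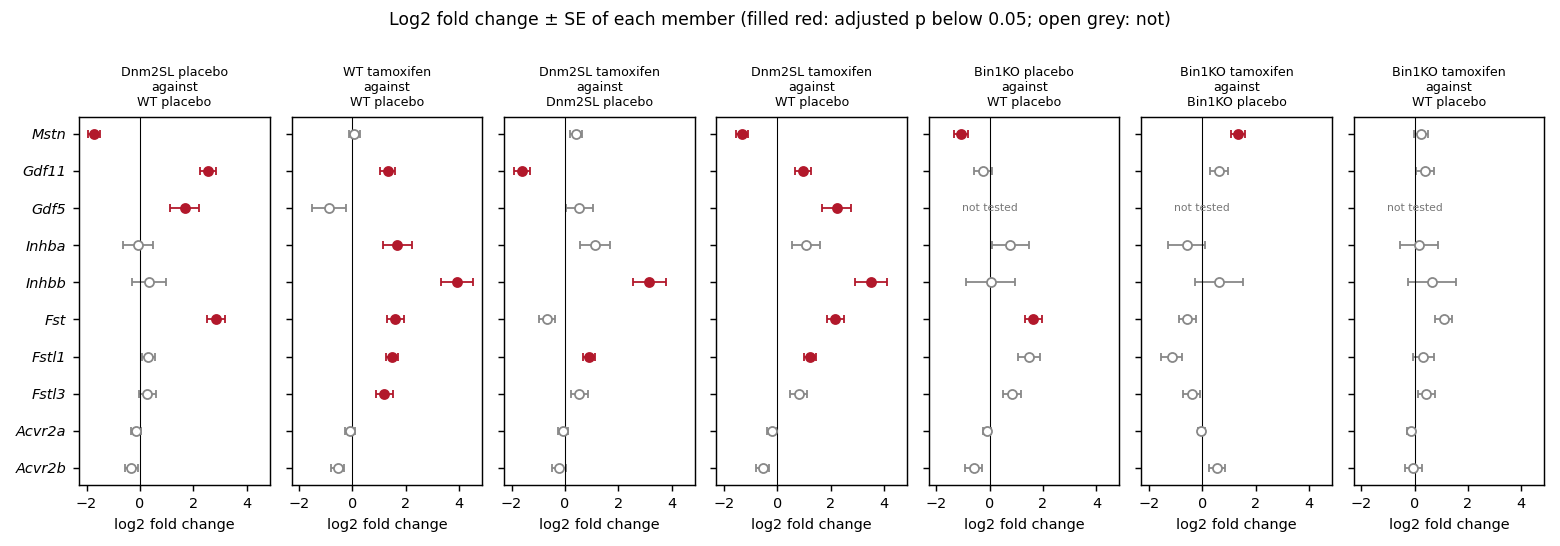
Log2 fold change with its SE for each gene of the axis in the 7 comparisons of groups, with filled red points for an adjusted p below 0.05 and open grey points for the others. The largest rise was that of *Inhbb* in WT tamoxifen (3.93) and the largest fall that of *Mstn* in Dnm2SL placebo (-1.73), while *Acvr2a* stayed between -0.22 and -0.03.

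Over the tested genes of the axis, the median log2 fold change was 0.30 in Dnm2SL placebo against WT placebo, 1.26 in WT tamoxifen against WT placebo, 0.48 in Dnm2SL tamoxifen against Dnm2SL placebo and 1.01 in Dnm2SL tamoxifen against WT placebo. Over all genes tested, it was 0.02, -0.04, -0.03 and 0.01. In the Bin1 cohort, the medians were 0.03, -0.03 and 0.33 for Bin1KO placebo against WT, Bin1KO tamoxifen against Bin1KO placebo and Bin1KO tamoxifen against WT. In WT tamoxifen, the ligands *Gdf11*, *Inhba* and *Inhbb* rose as well as *Fst*, *Fstl1* and *Fstl3* of the follistatin family.

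The other genes of the pathway were taken from 6 lists with 43 genes, of which 40 were tested in the Dnm2 cohort and 39 in the Bin1 cohort. In Dnm2SL placebo against WT, 7 rose and 2 fell, with a median log2 fold change of 0.09 over the 40. In WT tamoxifen, 15 rose, against 27.7% called of all genes, with a median of 0.45. In Dnm2SL tamoxifen against Dnm2SL placebo 5 rose (against 8.27% of all genes), and in Dnm2SL tamoxifen against WT placebo 15 rose and 1 fell (against 28.9%). In the Bin1 cohort, 1 rose in Bin1KO placebo, 3 rose and 2 fell with tamoxifen in Bin1KO (against 3.13%), and 1 rose in Bin1KO tamoxifen against WT (against 0.849%). In both placebo comparisons, the share called was near that of all genes, with 9 of 40 against 21.9% and 1 of 39 against 2.61%.

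Among type I receptors, *Tgfbr1*, a partner of the type II receptors for GDF11 and myostatin, was at 25.6 ± 1.71 CPM in WT placebo and 39.5 ± 5.57 CPM in Dnm2SL placebo (SD, n = 4), with a log2 fold change of 0.62 ± 0.10 and an adjusted p of 0.000628. It rose by 0.82 ± 0.10 in WT tamoxifen (adjusted p = 0.000227) and by 0.37 ± 0.10 with tamoxifen in Dnm2SL (adjusted p = 0.0330). *Acvr1b*, the activin type I receptor ALK4, rose with tamoxifen in Bin1KO from 35.2 ± 3.84 to 79.4 ± 25.2 CPM (log2 1.17 ± 0.23, adjusted p = 0.0207). In treated Dnm2SL muscles it was below WT placebo (log2 -1.09 ± 0.28, adjusted p = 0.0106). *Tgfbr3*, the co-receptor betaglycan, differed by 0.17 ± 0.16 on the log2 scale in Dnm2SL placebo (adjusted p = 0.490) and by 0.40 ± 0.16 in WT tamoxifen (adjusted p = 0.0759).

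In the SMAD2 and SMAD3 branch, 1 of 6 genes was called in Dnm2SL placebo, against 21.9% of all genes. *Smad3*, which carries the myostatin signal, fell from 147 ± 16.1 CPM in WT to 95.7 ± 20.5 CPM in Dnm2SL placebo (log2 -0.62 ± 0.14, adjusted p = 0.00729). It rose to 149 ± 22.3 CPM in Dnm2SL tamoxifen (log2 0.64 ± 0.14, adjusted p = 0.0158), where all mice were female. *Ski*, a corepressor of SMAD proteins, rose with tamoxifen in WT (0.42 ± 0.13, adjusted p = 0.0249) and in Dnm2SL (0.46 ± 0.13, adjusted p = 0.0409). *Smad4*, the common partner of both branches, differed by -0.15 in Dnm2SL placebo and -0.34 in Bin1KO placebo on the log2 scale, with no call.

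In the branch of BMP and GDF5, 3 of 11 genes rose in WT tamoxifen, a share near the 27.7% called of all genes. *Id2* and *Id3*, which are direct targets of SMAD1 and SMAD5, rose there by 2.94 ± 0.50 (adjusted p = 0.000944) and 1.496 ± 0.30 (adjusted p = 0.00251), and *Smad9* by 1.29 ± 0.34 (adjusted p = 0.0110). *Id2* also rose in Dnm2SL placebo (1.52 ± 0.49, adjusted p = 0.0387). In treated Dnm2SL muscles against WT placebo, 4 of 11 rose (against 28.9% of all genes), *Id2* among them (2.96 ± 0.50, adjusted p = 0.000910). In Bin1KO, *Id2* differed by 1.09 ± 0.59 on placebo against WT (adjusted p = 0.328) and by -0.14 ± 0.57 with tamoxifen (adjusted p = 0.919).

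Of the 6 tested genes for processing and latency, 5 rose in WT tamoxifen, against 27.7% of all genes called. *Bmp1*, a protease of the tolloid family that frees latent myostatin, went from 34.9 ± 5.45 to 133 ± 40.2 CPM (log2 1.92 ± 0.34, adjusted p = 0.00103), and in Dnm2SL it rose by 1.33 ± 0.33 (adjusted p = 0.0246). *Pcsk5*, a proprotein convertase, rose in Dnm2SL placebo (1.56 ± 0.35, adjusted p = 0.00556) and in WT tamoxifen (1.89 ± 0.35, adjusted p = 0.00133). *Ltbp3*, which tethers latent complexes to the matrix, rose in the same comparisons by 0.63 ± 0.14 (adjusted p = 0.00651) and 0.74 ± 0.14 (adjusted p = 0.00183).

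Of the 6 tested genes of other antagonists, 3 rose in WT tamoxifen, against 27.7% of all genes called. Decorin (*Dcn*), a matrix proteoglycan that binds myostatin and TGF-beta, went from 289 ± 37.2 to 638 ± 110 CPM (log2 1.14 ± 0.25, adjusted p = 0.00427). *Inha*, the inhibin alpha subunit, rose there by 1.09 ± 0.30 (adjusted p = 0.0133) and with tamoxifen in Bin1KO by 1.58 ± 0.30 (adjusted p = 0.0163). *Chrdl1*, a BMP antagonist, fell with tamoxifen in Bin1KO by 1.73 on the log2 scale (SE 0.39, adjusted p = 0.0282).

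Among 6 effectors downstream of the pathway, 2 rose in Dnm2SL placebo, against 21.9% of all genes called. *Cdkn1a*, the cell cycle inhibitor p21 that myostatin is known to induce in myoblasts, had the largest log2 fold change there among the pathway genes named, at 168 ± 44.8 CPM against 19.7 ± 8.27 CPM (log2 3.09 ± 0.33, adjusted p = 3.5e-05). It was at 197 ± 67.1 CPM in treated Dnm2SL muscles. *Cdkn1a* also rose in WT tamoxifen, to 57.0 ± 18.1 CPM (log2 1.53 ± 0.31 against WT placebo, adjusted p = 0.00272). *Ccn2*, a profibrotic target of TGF-beta, rose in Dnm2SL placebo (2.13 ± 0.43, adjusted p = 0.00349) and in Bin1KO placebo (1.67 ± 0.35, adjusted p = 0.0365). Its rise was not limited to the disease models, since it also rose in WT tamoxifen (1.65 ± 0.43, adjusted p = 0.0107). *Fbxo32*, the ubiquitin ligase atrogin-1, rose with tamoxifen in Bin1KO by 0.86 ± 0.21 (adjusted p = 0.0408) and differed by 0.18 in Dnm2SL placebo against WT (adjusted p = 0.648).

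Of the pathway calls named here, those in WT tamoxifen held in all 16 fits without 1 mouse except that of *Ski*, and so did those in Dnm2SL placebo against WT placebo except that of *Id2*. *Id2* was lost without any of the 4 WT placebo mice, Dnm2SL placebo mouse 4 or Dnm2SL tamoxifen mouse 1 (adjusted p up to 0.161), and *Ski* in WT tamoxifen without WT placebo mouse 2 or 3 or WT tamoxifen mouse 2 or 4 (up to 0.0708). In Dnm2SL tamoxifen against Dnm2SL placebo, the groups also differed in sex, with 4 and 2 female mice of 4. *Smad3* was lost there without Dnm2SL placebo mouse 2 (adjusted p = 0.0551), and *Bmp1* without Dnm2SL placebo mouse 2, 3 or 4 or Dnm2SL tamoxifen mouse 2 or 3 (up to 0.0999). *Tgfbr1* and *Ski* were each lost there without Dnm2SL tamoxifen mouse 1, 2 or 3, Dnm2SL placebo mouse 2 or WT placebo mouse 2, *Tgfbr1* also without Dnm2SL placebo mouse 3, and *Ski* also without Dnm2SL placebo mouse 4 or WT tamoxifen mouse 3 (up to 0.0929 and 0.136).

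With tamoxifen in Bin1KO, *Inha*, *Chrdl1*, *Acvr1b* and *Fbxo32* were each lost without Bin1KO placebo mouse 1, 2 or 4, with an adjusted p of up to 0.0555, 0.0815, 0.0682 and 0.115. *Acvr1b* and *Fbxo32* were also lost without Bin1KO tamoxifen mouse 3 or 4, and *Fbxo32* without Bin1KO placebo mouse 3 or WT mouse 7 or 8. *Ccn2* in Bin1KO placebo was lost without Bin1KO placebo mouse 1 or 2 or any of the 4 WT mice (adjusted p up to 0.121).

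Genes with a pattern like that of *Mstn* were sought over the 14571 genes ranked in both cohorts, by the smaller of the correlations of log2 CPM over 16 libraries of the Dnm2 cohort and 12 of the Bin1 cohort. The closest was *Gpd2*, the mitochondrial glycerol-3-phosphate dehydrogenase (r = 0.936 and 0.938), followed by *Pgm2l1* (0.918 and 0.938), *Ccnk* (0.921 and 0.906), *Mylk2* (0.897 and 0.916) and *Junos* (0.897 and 0.919). These correlations are descriptions over libraries that fall into groups. *Mylk2*, the myosin light chain kinase of skeletal muscle, was at 1185 ± 81.1 CPM in WT placebo, 610 ± 128 CPM in Dnm2SL placebo and 738 ± 177 CPM in Dnm2SL tamoxifen. Bin1 cohort levels of *Mylk2* were 1426 ± 228 CPM in WT, 705 ± 215 CPM in Bin1KO placebo and 1632 ± 426 CPM in Bin1KO tamoxifen. Within the axis, *Fst* had -0.765 in the Dnm2 cohort and -0.600 in the Bin1 cohort. *Gdf11* had -0.684 and 0.492, *Fstl1* -0.0575 and -0.731, and *Fstl3* -0.0355 and -0.661.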

How the data were processed

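The authors deposited 1 table of raw counts of reads per Ensembl gene for each cohort, 28 TA libraries in all. The submitters' processing notes name bcl2fastq 2.20.0.422, cutadapt 1.10, Bowtie 1.2.2, STAR 2.5.3, HTSeq 0.6.1p1 and the build mm39, and the strand setting of the counting is not given in the sources used here. *Acvr2a*, *Fst*, *Fstl3* and *Gdf5* overlap a gene on the opposite strand in GENCODE M21. The table of the Bin1 cohort has 4 lines that name no gene (22.0% to 30.8% of counts), which were left out.

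The genes of the axis and all lists were chosen with earlier results of these data known. The text names the 10 genes in every comparison, the 3 genes of each pathway list with the smallest p, the targeted genes and the 5 genes most like *Mstn*. *Bin1*, *Dnm2*, marker lists and sex served as checks. Each cohort was fitted by itself with edgeR 4.0.16 (TMM, default filter on low counts, robust quasi-likelihood test, Benjamini-Hochberg adjustment over all genes) in R 4.3.3, and both cohorts together to compare the models. CPM use TMM-scaled library sizes, and SE is the log2 fold change divided by the root of F. Each sample is 1 mouse, and as the labels do not name litters or cages, p-values measure the spread between these samples, which may be partly technical. The procedure was tested on simulated data, where genes changed 4-fold were found in 89% (Dnm2SL placebo against WT placebo, 15374 genes) and 82% (Bin1KO placebo against WT placebo, 14871 genes) of cases, and genes changed 2-fold in 43% and 44%. Unchanged genes made up 0% of the calls in the first simulation and 8.03% in the second, above the threshold of 5%. Each simulation changed fewer genes than were called in the data (3382 and 388 in these comparisons). These shares therefore need not hold for the data. No 2 libraries of a group agreed within sampling noise (lowest chi-square per gene 15.58). The alternatives were DESeq2 1.42.0, RLE normalization, no filter on low counts, a fit of just the groups compared, a block for the replicate number, and leaving out each mouse. The block was fitted in the Dnm2 cohort and to Bin1KO tamoxifen against Bin1KO placebo only. Sex as a covariate and female mice only were added after seeing the data, for the Dnm2 cohort only. The comparisons of the models were not fitted with sex.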

Additional observations from a re-analysis of the deposited data

Results flagged for a closer look

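In 70 sets of 4 mice (10 genes in 7 groups), 6 had a mouse whose gap to the nearest other mouse, as a share of the whole range, passed Dixon's 95% limit for 4 values, which chance passes in about 1 in 20 groups. *Mstn* was at 26.8 CPM in WT mouse 7 of the Bin1 cohort, against 20.4 to 20.8 CPM in the other 3. *Gdf11* was at 5.40 CPM in Dnm2SL tamoxifen mouse 4, against 11.8 to 12.7 CPM. *Inhbb* was at 12.7 CPM in WT tamoxifen mouse 2, against 8.05 to 8.77 CPM, and at 3.52 CPM in Bin1KO tamoxifen mouse 2, against 0.0365 to 0.582 CPM. *Acvr2a* was at 26.7 CPM in WT placebo mouse 1 of the Dnm2 cohort, against 30.7 to 30.8 CPM, and *Acvr2b* at 4.15 CPM in Bin1KO tamoxifen mouse 3, against 2.22 to 2.45 CPM.

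Effects differed between groups by a test of the difference for 3 genes. The effect of tamoxifen in Dnm2SL minus that in WT mice was -2.93 on the log2 scale for *Gdf11* and -2.29 for *Fst*. The *Fst* call (adjusted p = 0.0470) held in 2 of 16 fits without 1 mouse and was lost with RLE normalization (0.0514). Neither gene was called in female mice only (0.0690 and 0.139). Between the models, the disease effect on *Gdf11* was 2.81 higher in Dnm2SL than in Bin1KO. Tamoxifen effects differed between Dnm2SL and Bin1KO by -2.20 for *Gdf11* and by 2.10 for *Fstl1*, and neither difference was called without the filter on low counts.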

How the results depend on the processing

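No result changed its direction while called under any alternative, and the cause of each change below was not tested. Over all genes, the number called moved by over 1.5 times in these fits. With female mice only, an alternative chosen after seeing the data, it was 1124 in Dnm2SL placebo against WT placebo, 2231 in WT tamoxifen against WT placebo, 79 in Dnm2SL tamoxifen against Dnm2SL placebo and 1099 in Dnm2SL tamoxifen against WT placebo. These fits have fewer mice. In Dnm2SL tamoxifen against Dnm2SL placebo it was 814 without a filter on low counts, 30 with only the 2 groups compared and 515 with sex as a covariate. For the interaction it was 327 with DESeq2, 20 with RLE normalization and 140 with sex as a covariate. In the Bin1 cohort, DESeq2 called 1191 genes in Bin1KO placebo against WT, 1223 in Bin1KO tamoxifen against Bin1KO placebo and 544 in Bin1KO tamoxifen against WT. A fit of only the 2 groups compared called 1458 and 122 in the first and second of these, and no filter called 210 in the third. Between models, DESeq2 called 223 genes for the disease effect and 1328 for the tamoxifen effect, which was 63 without a filter.

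Within the axis, female mice only gave 3 calls in WT tamoxifen, 0 in Dnm2SL tamoxifen against Dnm2SL placebo, 3 in Dnm2SL tamoxifen against WT placebo and 0 in the interaction. Only the 2 groups compared gave 0 in Dnm2SL tamoxifen against Dnm2SL placebo and 0 in Bin1KO tamoxifen against Bin1KO placebo. The interaction had 1 with RLE and 1 without a filter, Bin1KO placebo against WT had 1 without a filter, Bin1KO tamoxifen against WT had 1 with DESeq2, and the difference of tamoxifen effects had 0 without a filter. By gene, female mice only lost *Gdf5* in Dnm2SL placebo (adjusted p = 0.172), *Inhba*, *Fst* and *Fstl3* in WT tamoxifen (0.133, 0.0685 and 0.0714) and *Gdf11*, *Gdf5* and *Inhbb* in Dnm2SL tamoxifen against WT placebo (0.154, 0.0970 and 0.0541). No filter lost *Mstn* in Bin1KO placebo (0.0980), *Inhba* in WT tamoxifen (0.0657), *Gdf11* in Dnm2SL tamoxifen against WT placebo (0.0650) and *Fstl1* in Dnm2SL tamoxifen against Dnm2SL placebo (0.0671).

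Leaving out 1 mouse at a time, the number of genes called was 2034 to 3953 in Dnm2SL placebo against WT placebo, 2769 to 4825 in WT tamoxifen, 368 to 2562 and 2955 to 5497 in Dnm2SL tamoxifen against Dnm2SL placebo and WT placebo, and 1 to 293 for the interaction. It was 18 to 759, 160 to 1253 and 42 to 266 in the 3 comparisons of the Bin1 cohort, 13 to 154 for the disease effect between models and 6 to 2195 for the tamoxifen effect. Genes of the axis called were 3 to 4, 4 to 6, 2 to 3, 5 to 8 and 0 to 2 in the Dnm2 cohort, 0 to 3, 0 to 2 and 0 to 1 in the Bin1 cohort, and 1 to 1 and 0 to 4 between models, in the same order. Without Dnm2SL tamoxifen mouse 4, the mouse with a low bone sum, 8 genes of the axis were called against WT placebo, *Inhba* and *Fstl3* added. Over all genes, the calls of this comparison also moved, from 4461 with all mice to between 2955 and 5497 without 1 mouse. The 8 calls are therefore not read as a result about the axis.

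Mice with the same number did not deviate together in every pair of groups, so that the numbers do not pair them. In the Dnm2 cohort, a replicate block lost *Gdf5* in Dnm2SL placebo against WT placebo (adjusted p = 0.0823) and *Fst* in the interaction (0.0638), and no other call of the axis. It called 843 genes in Dnm2SL tamoxifen against Dnm2SL placebo, and 10 genes and 1 gene of the axis in the interaction. In the Bin1 cohort, the block was fitted only to Bin1KO tamoxifen against Bin1KO placebo (only the 2 groups compared), where it called 152 genes. The other calls of the Bin1 cohort and those between models were not fitted with it. Depth limits *Gdf5*, *Inhba* and *Inhbb*, which had few reads in placebo muscles.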
